A study of Mus musculus with 9 samples.

Results

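The genes described here are 37 cell adhesion molecules of bone marrow stroma: 13 integrin alpha subunits, 7 integrin beta subunits, 11 adhesion molecules with immunoglobulin-type domains, 5 cadherins and the hyaluronan receptor Cd44. They were taken by name, and each was read by 1 probe set whose only gene symbol was that name, so they are 37 of the 19938 genes, and 37 of the 21789 probe sets, with a single symbol. RNA came from CXCL12-abundant reticular (CAR) cells, stromal cells that make the chemokine Cxcl12 and hold blood stem cells and B cell precursors in the marrow. G-CSF, a cytokine that drives neutrophil output and releases stem cells from the marrow, was given at 250 µg/kg per day for 5 days to the mice behind 5 Mouse Gene 1.0 ST arrays, and phosphate-buffered saline (PBS) for 5 days to those behind 4 arrays. Mice of both groups had the genotype Cxcl12+/gfp, with a green fluorescent reporter in one allele of Cxcl12, and lineage-negative cells bright for the reporter were sorted. The source names of these samples speak of pre-B colonies and, for 4 G-CSF arrays, of an Hspa9 genotype. The titles, treatments and protocols speak of CAR cells, and the groups follow the titles. The arrays are called biological replicates without naming the animals or pools behind them, so p-values measure the spread between arrays.

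Integrins are membrane receptors made of an alpha and a beta chain, and the pairing sets which matrix protein or counter-receptor a cell grips. Vcam1 on stromal cells is held by the integrin alpha 4 beta 1 (VLA-4) on blood stem cells and B cell precursors, and loosening this grip is a known route by which such cells leave the marrow. Cadherins bind the same cadherin on a neighbouring cell, and Cd44 binds the matrix sugar hyaluronan.

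Levels are log2 RMA intensities, and a change is the G-CSF mean minus the PBS mean of these, given with its limma standard error (SE). Calls were made where the p-value, adjusted by Benjamini and Hochberg's method over all 21789 probe sets, was under 0.05. RMA gives no detection call, and in sorted bulk RNA fewer cells with a transcript and less transcript per cell cannot be told apart. The Cxcl12 level was 11.99 ± 0.07 in G-CSF arrays (SD, n = 5) and 12.35 ± 0.11 in PBS arrays (n = 4). The Lepr level, for the leptin receptor of the same stroma, was 11.33 ± 0.26 in G-CSF arrays and 11.55 ± 0.21 in PBS arrays. Of 8 CAR markers, 3 fell (Kitl, Ebf3 and Adipoq), and Cxcl12, Lepr, Foxc1, Pdgfra and Pdgfrb did not pass. Their summed linear intensity was 11911.7 to 13020 in G-CSF arrays and 15811.2 to 18541.6 in PBS arrays. Mean neutrophil marker level over 13 genes was 9.47 ± 0.31 in G-CSF arrays and 8.48 ± 0.63 in PBS arrays, and 2 of the 13 rose. All 13 changes lay above 0, and 9 had an unadjusted p under 0.05 in limma, against 9.22% of the 21789 probe sets. The summed linear intensity of the 13 was 13835.6 to 21965.6 in G-CSF arrays and 8047.6 to 19760.1 in PBS arrays. As the neutrophil marker mean differed with the treatment, a fit with it as a covariate cannot fully separate marker level from treatment. Principal component 1 held 34.9% of the variance, and on it G-CSF replicates 1 to 3 and PBS replicates 1 and 2 lay on one side (array set 1) and the other 4 arrays on the other (array set 2). PBS replicate 3 stood furthest from 0 on it, at 56.51, and PBS replicate 1 next, at -30.28. The labels name no batch.

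Of the 37 adhesion genes, 3 were called: Itgb5 rose, and Itga8 and Vcam1 fell. That is 8.11% of the members, against 1.62% of all probe sets (0.743% risen and 0.877% fallen). Here and below, all probe sets are the 21789 with a single symbol unless 35553 are named. The members were chosen with earlier results of these data known, so their share is not a test of enrichment. The members lay on both sides of no change, 20 above 0 and 17 below, with a median change of 0.02, against 0.0061 over all probe sets. The median size of a change without regard to sign was 0.21 for the members and 0.14 over all probe sets. All G-CSF arrays lay on one side of all PBS arrays for 4 members (10.8%), against 4.65% of all probe sets. They lay above for Itgb5 (2.18% of all probe sets) and below for Itga8, Vcam1 and Cdh11 (2.46% of all probe sets). At an unadjusted p under 0.05 there were 7 of the 37 members, namely these 4 with Icam2, Cd44 and Ncam1. Of all probe sets, 2008 of 21789 (9.22%) were under it, which is also the share beside later counts at an unadjusted p. For the 34 members that were not called, the 95% interval of the change lay inside a 2-fold difference either way for 33 and inside a 1.5-fold difference for 19. Itga3 was the exception to the first bound. These intervals reached 0.30 to 0.63 log2 units to either side of the change, with a median of 0.39. Of the 37 members, 12 had a mean level at or below 5.15, the median over all 35553 probe sets. Itga6, Itgb4, Itgb6, Itgb7, F11r, Cadm3, Cdh4 and Cdh13 of the 19 are among these. Without detection calls, a narrow interval at such levels does not show that a transcript was present and steady.

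**Figure D1:**
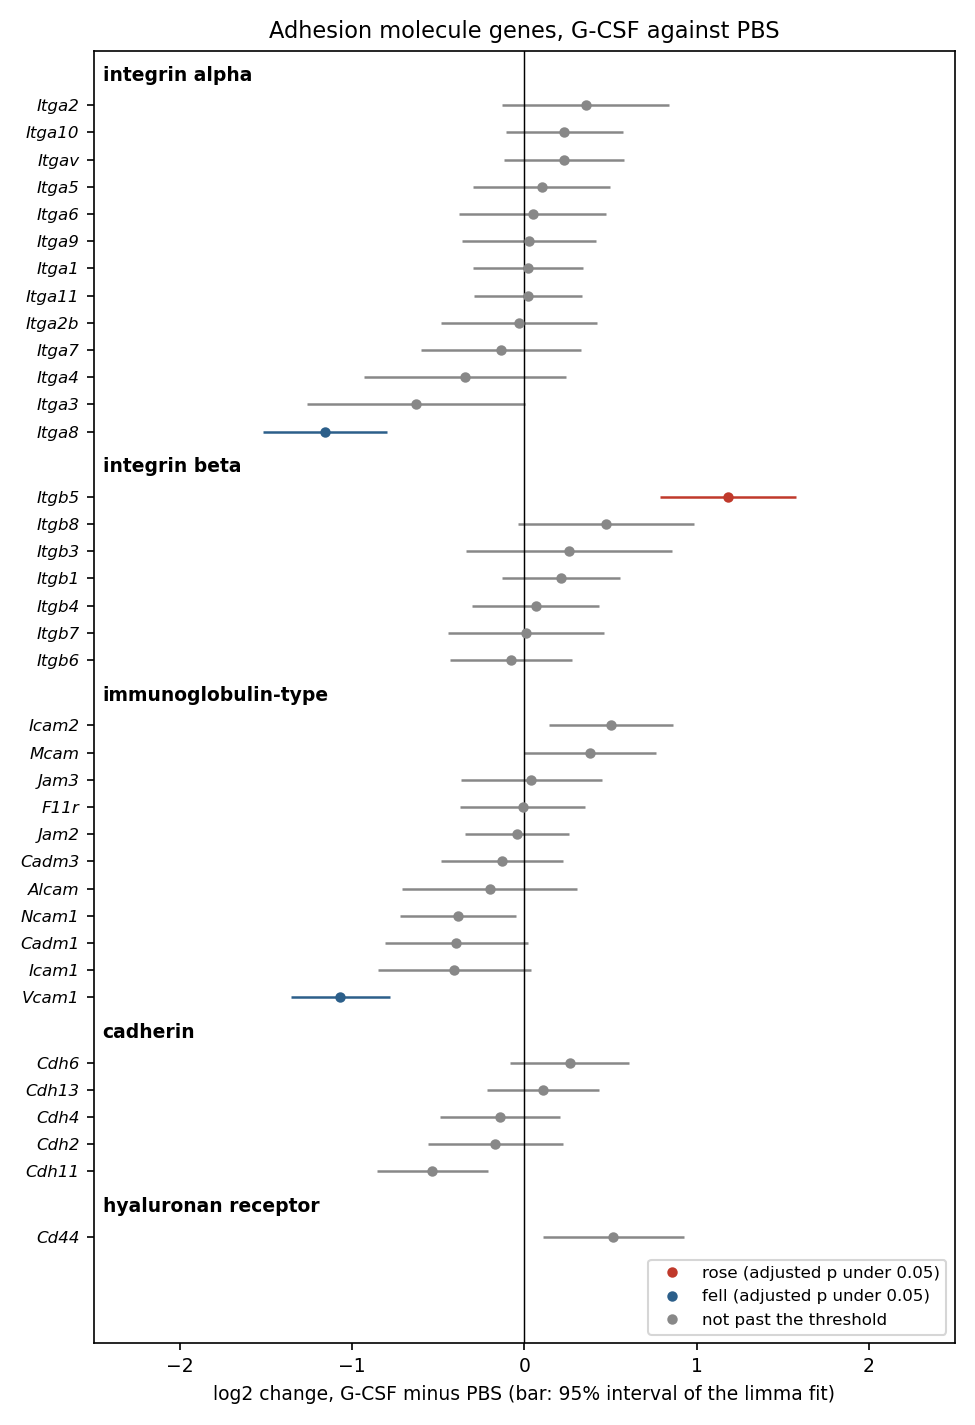
Change of each of the 37 adhesion genes (G-CSF minus PBS, log2, x axis) with the 95% interval of the limma fit as a bar, by class (5 G-CSF and 4 PBS arrays). Itgb5 (1.18) stands to the right and Itga8 (-1.16) and Vcam1 (-1.07) to the left, and the 34 grey genes did not pass the threshold.

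Itgb5 encodes the beta 5 chain, which pairs with alpha v only and makes a receptor for vitronectin and other proteins with the RGD tripeptide. Its levels were 8.49, 9.23, 9.21, 9.12 and 9.25 in G-CSF replicates 1 to 5, against 7.71, 7.98, 7.73 and 8.09 in PBS replicates 1 to 4. All G-CSF arrays lay above all PBS arrays, and G-CSF replicate 1 lay apart from the other 4 of its group, on the side of PBS. The change was 1.18 (SE 0.18), a 2.27-fold rise with an adjusted p of 0.00548 in limma. With each array left out in turn, the change ran from 1.13 to 1.33 and the adjusted p from 0.00141 to 0.0238, and the gene stayed called each time. Within array sets 1 and 2 it was higher in G-CSF arrays by 1.13 and 1.28, at adjusted p of 0.115 and 0.0918. With the neutrophil marker mean as a covariate the change was 1.21 at adjusted p = 0.222.

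The beta 5 chain needs alpha v at the surface, and the Itgav level did not pass. Itgav stood at 9.14, 9.30, 9.45, 9.57 and 9.64 in G-CSF arrays, against 9.05, 8.98, 9.24 and 9.48 in PBS arrays, and the groups overlapped. Its change was 0.23 (SE 0.16, adjusted p = 0.806 in limma), with a 95% interval of -0.12 to 0.58. The upper end of that interval lies below the lower end of the Itgb5 interval (0.79 to 1.58), while the difference between these genes was not tested. The other beta chains that pair with alpha v did not pass either. Itgb8, a chain known for activating latent TGF-beta, had a change of 0.47 (adjusted p = 0.602). Itgb3, the beta 3 chain of platelets and osteoclasts, had a change of 0.26 (adjusted p = 0.918), and Itgb6, an epithelial chain, one of -0.08 (adjusted p = 0.977). Itgb1, the beta 1 chain, pairs with alpha v among many others and had a change of 0.21 (adjusted p = 0.824).

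Itga8 encodes the alpha 8 chain, which pairs with beta 1 and binds nephronectin, fibronectin and tenascin C, and which is known from mesenchymal cells of kidney, lung and vessel walls. Levels were 4.59, 4.81, 4.81, 4.54 and 4.94 in G-CSF arrays, against 6.19, 6.08, 5.79 and 5.53 in PBS arrays. The groups did not overlap, and the spread was wider among the PBS arrays. Itga8 is a dim gene here. Its G-CSF levels all lay below 5.15, the median of the mean level over all 35553 probe sets, and its PBS levels above it. The change was -1.16 (SE 0.17), a 2.23-fold fall with an adjusted p of 0.00335 in limma. It stayed called with any 1 array left out, at changes of -1.28 to -1.06 and adjusted p of 0.00373 to 0.0149. Within set 1 Itga8 was at -1.40 (adjusted p = 0.0146), and within set 2 at -0.92 (adjusted p = 0.255). With the neutrophil marker mean as a covariate the change was -1.17 at adjusted p = 0.186. Smooth muscle and pericytes are other cells known to carry alpha 8. The summed linear intensity of 7 of their markers was 443.6 to 606.9 in G-CSF arrays and 288.1 to 341.9 in PBS arrays. It was higher in every G-CSF array, and 1 of the 7 rose (3 at an unadjusted p under 0.05 in limma). The part of these markers in the Itga8 result was not tested.

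Promoter sequence is shown for both called integrins, as stretches before the annotated gene, 5′ to 3′, from RefSeq on GRCm38.p6. RefSeq windows of 300 bases (250 before and 50 after a start site) matched 23 of the 37 members, Vcam1 not among them. They were searched on both strands for a STAT motif (TTCNNNGAA), as G-CSF receptors signal through STAT3, for an EBF motif, as Ebf3 was among the stromal markers that fell, and for an AP-1 motif (TGANTCA). Capitals mark a match. Neither Itga8 nor Itgb5 held any of the 3 motifs in its window, and Icam1 is shown beside them because it held a STAT match, 42 bases before the start site.
Itga8 (chr2:12301986-12302194, minus strand): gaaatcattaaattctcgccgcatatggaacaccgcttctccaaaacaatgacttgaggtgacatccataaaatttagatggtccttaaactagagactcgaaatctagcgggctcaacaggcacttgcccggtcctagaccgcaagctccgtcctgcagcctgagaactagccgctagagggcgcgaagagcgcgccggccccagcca
Itgb5 (chr16:33829415-33829664, plus strand): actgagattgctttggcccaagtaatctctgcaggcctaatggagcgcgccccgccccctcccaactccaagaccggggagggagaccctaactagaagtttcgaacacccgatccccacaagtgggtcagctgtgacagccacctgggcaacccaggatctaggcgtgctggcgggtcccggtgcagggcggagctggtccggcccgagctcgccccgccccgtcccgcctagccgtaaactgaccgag
Icam1 (chr9:21015690-21015939, plus strand): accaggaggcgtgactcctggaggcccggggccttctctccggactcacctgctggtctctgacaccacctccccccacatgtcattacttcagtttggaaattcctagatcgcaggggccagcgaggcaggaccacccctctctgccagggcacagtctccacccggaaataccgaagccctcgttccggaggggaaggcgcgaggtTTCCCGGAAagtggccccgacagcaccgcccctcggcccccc

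Among the 23 members with a window, the STAT letters were found in 2 (Icam1 and Itga10), the EBF letters in 1 (Cadm3) and the AP-1 letters in 4 (Cadm3, F11r, Itga3 and Itga9). Of all 32851 mouse promoter windows of that length, 8.3% held the STAT letters, 0.904% the EBF letters and 7.81% the AP-1 letters. None of the members with a match was called changed. Of the called members only Itga8 and Itgb5 had a window. At these shares most windows hold no match, so its absence from so few says nothing about the changes. A match of letters is a description of the sequence and not a binding site.

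Vcam1 encodes the stromal counter-receptor of VLA-4. Its levels were 10.39, 10.48, 10.32, 10.57 and 10.60 in G-CSF arrays, against 11.53, 11.50, 11.44 and 11.69 in PBS arrays. The groups lay far apart for their spread, and the SD within each group was 0.12 (G-CSF) and 0.11 (PBS). The change was -1.07 (SE 0.13, 95% interval -1.35 to -0.78, adjusted p = 0.00134 in limma), which is a 2.10-fold fall. Of the 3 called members it moved least when single arrays were left out, with changes of -1.10 to -1.02 and adjusted p of 0.00235 to 0.00609. Within set 1 it was at -1.12 (adjusted p = 0.0279) and within set 2 at -0.98 (adjusted p = 0.169). With the neutrophil marker mean as a covariate its change was -0.99 at adjusted p = 0.164.

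Marrow macrophages also carry Vcam1. The summed linear intensity of 8 macrophage markers was 300.5 to 364.7 in G-CSF arrays and 255.7 to 462.8 in PBS arrays, and the groups overlapped. None of these markers was called (0 of 8 in limma). Cd68 was the brightest of them, at 7.19 in G-CSF arrays and 6.81 in PBS arrays. Adgre1, Cd163 and Mrc1 had means below 5.15, the median over all 35553 probe sets, in both groups. Without detection calls, it cannot be read whether such dim transcripts were present. By direction 6 of the 8 lay below 0, and Mrc1 (-0.79, adjusted p = 0.142) and C1qb (-0.77, adjusted p = 0.0538) had an unadjusted p under 0.05. Vcam1 also moved in the same direction as the summed CAR markers given above. The part of either marker list in the Vcam1 result was not tested. The chains of VLA-4 itself were also on the arrays. Itga4, the alpha 4 chain, was at 4.64, 4.82, 4.28, 5.68 and 5.56 in G-CSF arrays, against 5.46, 5.61, 5.15 and 5.16 in PBS arrays. G-CSF replicates 1 to 3 lay below every PBS array, and G-CSF replicates 4 and 5 lay within or above the PBS range. The Itga4 change was -0.35 (adjusted p = 0.843), with opposite signs in set 1 (-0.95) and set 2 (0.47). Itgb1, the shared beta 1 chain, was at 9.65 ± 0.17 in G-CSF arrays and 9.44 ± 0.25 in PBS arrays (change 0.21, adjusted p = 0.824). Itgb7, which pairs with alpha 4 on lymphocytes, had a change of 0.01 (adjusted p = 0.998), and Itga9, another chain that binds Vcam1, one of 0.03 (adjusted p = 0.993).

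**Figure D2:**
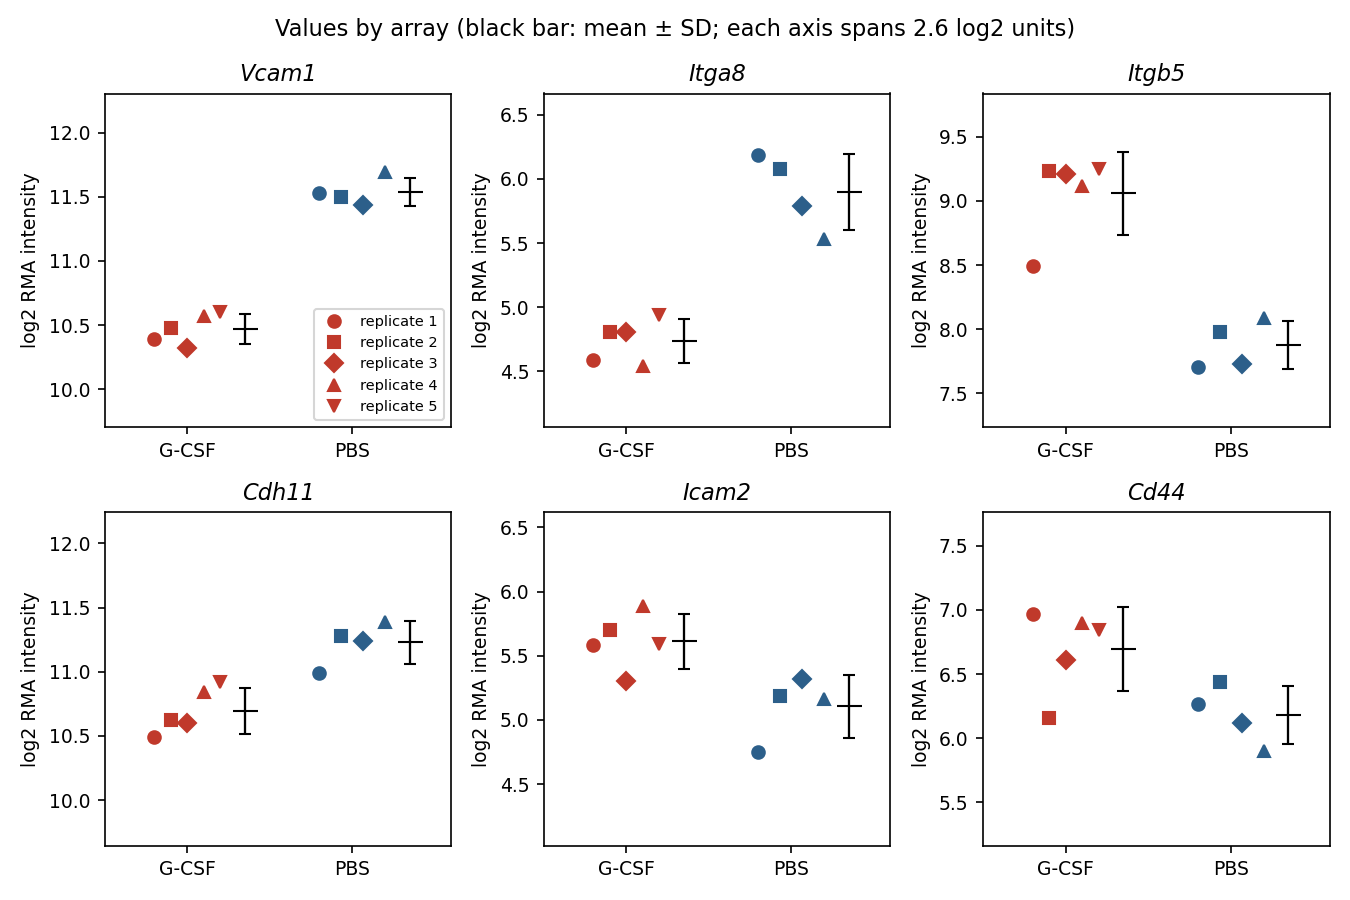
Log2 RMA intensity (y axis, the same span of 2.6 units in each panel) of 6 adhesion genes in 5 G-CSF arrays (left) and 4 PBS arrays (right), with mean ± SD in black and a symbol per replicate number. Vcam1, Itga8, Itgb5 and Cdh11 do not overlap between groups, whereas Icam2 and Cd44 do.

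The ligands Icam1 and Icam2 had changes of opposite sign, and neither was called. Icam1, a ligand of the leukocyte integrins alpha L beta 2 and alpha M beta 2 that inflammatory signals raise in many cells, was at 6.92, 7.33, 6.85, 7.53 and 7.50 in G-CSF arrays, against 7.51, 7.47, 7.42 and 8.14 in PBS arrays. The groups overlapped, and PBS replicate 4 stood above the rest. The Icam1 change was -0.41 (adjusted p = 0.612). Icam2, a ligand of the same integrins found on endothelium and blood cells, was at 5.58, 5.70, 5.30, 5.89 and 5.59 in G-CSF arrays, against 4.75, 5.19, 5.32 and 5.16 in PBS arrays. Only G-CSF replicate 3 and PBS replicate 3 crossed. The Icam2 change was 0.50 (SE 0.17, unadjusted p = 0.00979, adjusted p = 0.235 in limma). The 10 endothelial markers had a summed intensity of 449.5 to 520.1 in G-CSF arrays and 406.8 to 649.7 in PBS arrays, and 0 of 10 were called (3 at an unadjusted p under 0.05).

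The remaining immunoglobulin-type members did not pass. Ncam1, a neural and mesenchymal adhesion molecule, stood at 7.40 ± 0.21 in G-CSF arrays and 7.79 ± 0.17 in PBS arrays (change -0.39, unadjusted p = 0.0271, adjusted p = 0.409). Cadm1, a nectin-like molecule, was at -0.39 as well, with an adjusted p of 0.586. Mcam (CD146), a marker of perivascular stroma and endothelium, had a change of 0.38 (adjusted p = 0.549). Alcam (CD166), a ligand of CD6, was at -0.20 (adjusted p = 0.934), and its PBS replicate 3 value of 5.74 lay well above the other PBS arrays (4.65 to 4.73). Cadm3, mainly a neural gene, was at -0.13. The junctional adhesion molecules F11r, Jam2 and Jam3, which bind one another and leukocyte integrins at cell contacts, had changes between -0.04 and 0.04. By direction alone, 8 of the 11 immunoglobulin-type members lay below 0 and 3 above, with a median of -0.13.

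**Figure D3:**
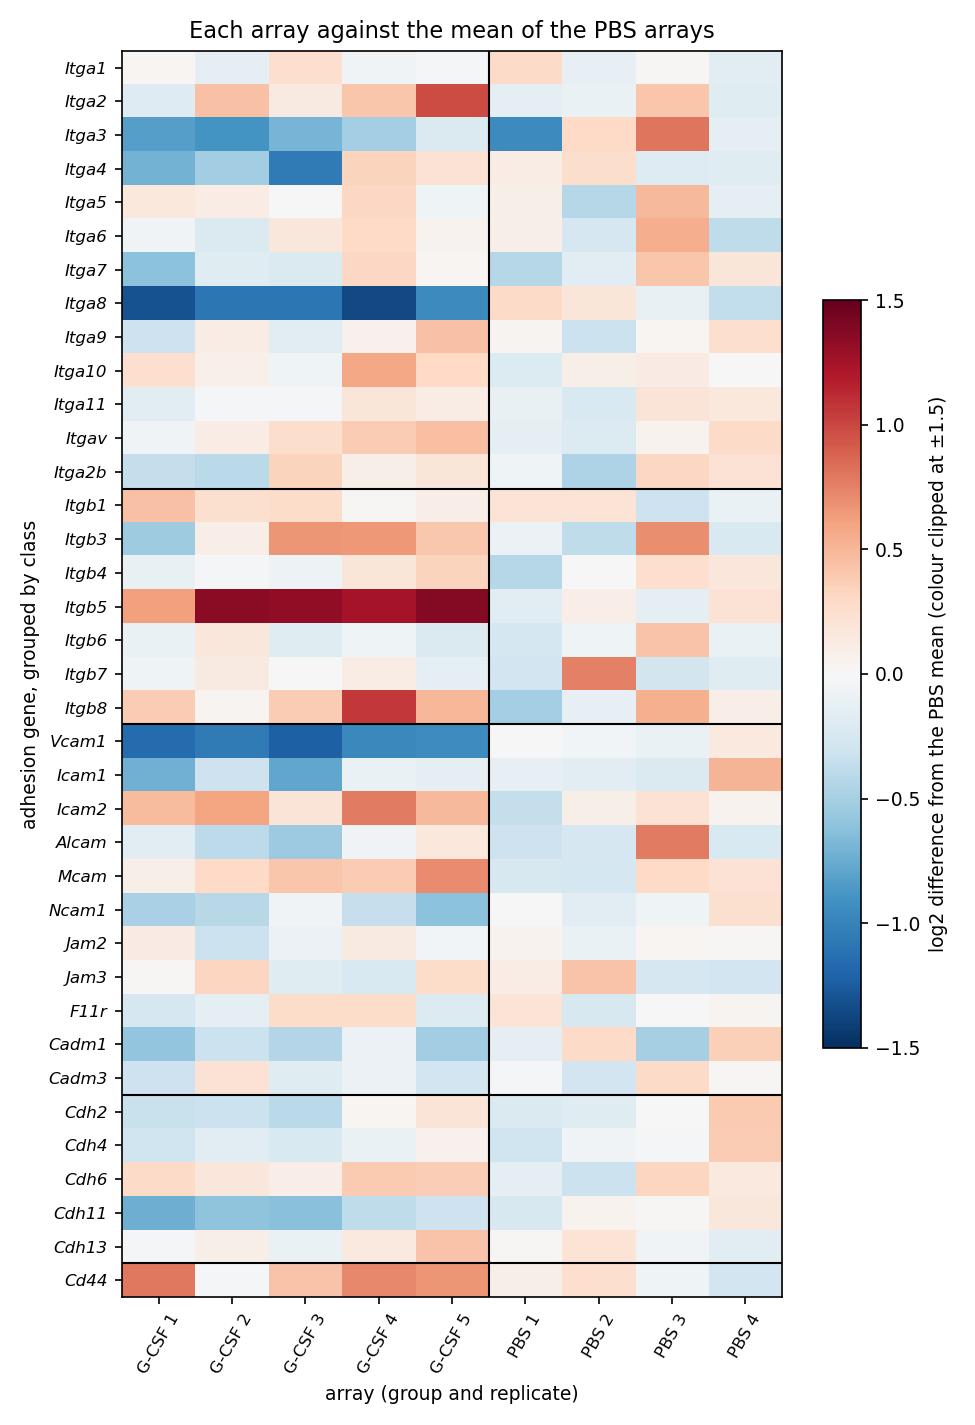
Log2 difference of each array (columns, 5 G-CSF arrays left of 4 PBS arrays) from the mean of the PBS arrays, for the 37 adhesion genes (rows, by class), with colour clipped at ±1.5. Itga8 and Vcam1 are blue and Itgb5 is red in all 5 G-CSF arrays, and Itga4 differs between G-CSF replicates 1 to 3 and 4 to 5.

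Of the 5 cadherins none was called (0 of 5 in limma, with 1 at an unadjusted p under 0.05). Cdh11, the cadherin of mesenchymal and osteoblast lineage cells, came nearest. It was at 10.49, 10.62, 10.60, 10.84 and 10.92 in G-CSF arrays, against 10.99, 11.28, 11.24 and 11.39 in PBS arrays. The groups did not overlap, though G-CSF replicate 5 lay close to PBS replicate 1. The change was -0.53 (SE 0.15, unadjusted p = 0.0034, adjusted p = 0.125 in limma). With the array set as a block Cdh11 was called, at -0.51 and an adjusted p of 0.0476, and within sets 1 and 2 it stood at -0.57 and -0.44. The 4 measured osteoblast markers of 5 listed had a summed intensity of 250.4 to 372.6 in G-CSF arrays and 541.9 to 591.4 in PBS arrays. Of these markers 1 fell, and their part in the Cdh11 result was not tested. Cdh2 (N-cadherin), proposed as a contact between niche cells and stem cells, was at 9.73 ± 0.26 in G-CSF arrays and 9.90 ± 0.28 in PBS arrays (change -0.17, adjusted p = 0.918). Cdh4 was at -0.14, Cdh13, a cadherin held by a lipid anchor, at 0.11, and Cdh6 at 0.26, with adjusted p of 0.929, 0.952 and 0.744.

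The alpha chains other than alpha 8 did not pass the threshold. The 4 chains that bind collagen with beta 1 (Itga1, Itga2, Itga10 and Itga11) had changes of 0.02 to 0.36. Itga11, a collagen receptor of mesenchymal cells, was at 9.04 ± 0.13 in G-CSF arrays and 9.02 ± 0.21 in PBS arrays, and its 95% interval of -0.29 to 0.33 excludes a change of 1.5-fold. Itga1 had nearly the same interval, -0.30 to 0.34. The 3 laminin-binding chains ran from -0.63 (Itga3) through -0.14 (Itga7) to 0.05 (Itga6). Itga3 was at 5.12, 5.05, 5.24, 5.43 and 5.72 in G-CSF arrays, against 4.99, 6.24, 6.74 and 5.80 in PBS arrays. PBS replicate 1 lay below every G-CSF array while the other 3 PBS arrays lay above them all, and the change did not pass (adjusted p = 0.549). Itga5, the alpha chain of the main fibronectin receptor, was at 0.10 (adjusted p = 0.973).

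Itga2b and Itgb3 form the fibrinogen receptor of platelets and megakaryocytes. Itga2b was at 5.05, 5.00, 5.74, 5.50 and 5.59 in G-CSF arrays, against 5.34, 4.94, 5.72 and 5.63 in PBS arrays, with full overlap (change -0.03, adjusted p = 0.994). The summed intensity of 5 measured megakaryocyte markers of 9 listed ranged from 128.8 to 841.8 in G-CSF arrays and from 166.8 to 747.6 in PBS arrays, again without separating the groups. Itgb4, the laminin receptor chain of epithelia, was at 0.07 (adjusted p = 0.981). By direction alone, 14 of the 20 integrin chains lay above 0 and 6 below, with a median of 0.04.

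Cd44 was at 6.97, 6.16, 6.61, 6.90 and 6.84 in G-CSF arrays, against 6.27, 6.44, 6.12 and 5.90 in PBS arrays. G-CSF replicate 2 lay within the PBS range and the other 4 G-CSF arrays lay above it. The change was 0.52 (SE 0.19, unadjusted p = 0.0177, adjusted p = 0.323 in limma), with 0.23 in set 1 and 0.86 in set 2. Cd44 is also known from leukocytes. The neutrophil marker mean was 8.96 in G-CSF replicate 2 and 9.42 to 9.72 in the other 4 G-CSF arrays. It was highest in G-CSF replicate 3 (9.72), where Cd44 (6.61) was lower than in G-CSF replicates 1, 4 and 5. Among PBS arrays replicate 2 had the highest marker mean (9.37) and the highest Cd44 level. PBS replicate 1 had the lowest marker mean (7.92), with Cd44 above that of PBS replicates 3 and 4. With that mean as a covariate the Cd44 change was 0.15 (adjusted p = 1), and the cause of the smaller change was not tested.

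Genes that work with these molecules were counted from 5 lists. These lists too were chosen with earlier results of these data known, so their shares are not tests of enrichment. Of 71 measured, 6 rose and 3 fell, which is 12.7%, against 1.62% of all probe sets. All 9 kept their direction with any 1 array left out, but 5 of them lost the call in 6 to 8 of the 9 such fits (Tnc, Fbln5, Lama4, Zyx and Parvg). With the neutrophil marker mean as a covariate none of the 71 was called, while most changes of the 9 stayed about as large. They were 1.499 for Col1a1, 1.496 for Vcan, -1.29 for Lama2, 1.13 for Has2, 1.00 for Lama4, 0.80 for Zyx, -0.69 for Fbln5, -0.55 for Tnc and 0.39 for Parvg. Of 20 measured integrin ligands, 2 rose and 3 fell (25%, against 1.62% of all probe sets). Col1a1, the main chain of collagen I, rose by 1.36 (2.57-fold, adjusted p = 0.00157 in limma). Col1a2, the other chain of collagen I, named after its values were seen, was at 0.10 (adjusted p = 0.973), and its groups overlapped. Lama4, the laminin alpha 4 chain, rose by 0.85 (adjusted p = 0.0292, and up to 0.0938 without PBS replicate 2). Lama2, the laminin alpha 2 chain, was at 5.05 ± 0.24 in G-CSF arrays and 6.21 ± 0.30 in PBS arrays, a 2.23-fold fall (adjusted p = 0.00572, and up to 0.0228 without PBS replicate 2). The laminin alpha 4 and alpha 2 chains thus changed in opposite directions, while the 3 laminin-binding alpha integrin chains did not pass.

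Tnc, tenascin C, and Fbln5, a fibulin with an RGD motif, fell by 0.66 and 0.69 (adjusted p = 0.0468 and 0.0262). Without PBS replicate 1 the adjusted p of Tnc was 0.144, and without PBS replicate 4 that of Fbln5 was 0.0866. Tenascin C is one ligand of alpha 8 beta 1, and nephronectin (Npnt) is another. Npnt, singled out after its values were seen, was at 4.92, 4.85, 5.13, 5.14 and 5.47 in G-CSF arrays, against 6.34, 5.63, 6.22 and 5.61 in PBS arrays. The groups did not overlap, and its change of -0.85 just missed the threshold (SE 0.20, adjusted p = 0.0555 in limma). It was called with the array set as a block, and was at adjusted p of 0.0537 to 0.171 with 1 array left out. Fn1, fibronectin, also a ligand of alpha 8 beta 1 and likewise named after its values were seen, was at 0.73 (adjusted p = 0.144, and 0.0155 with the array set as a block).

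**Figure D4:**
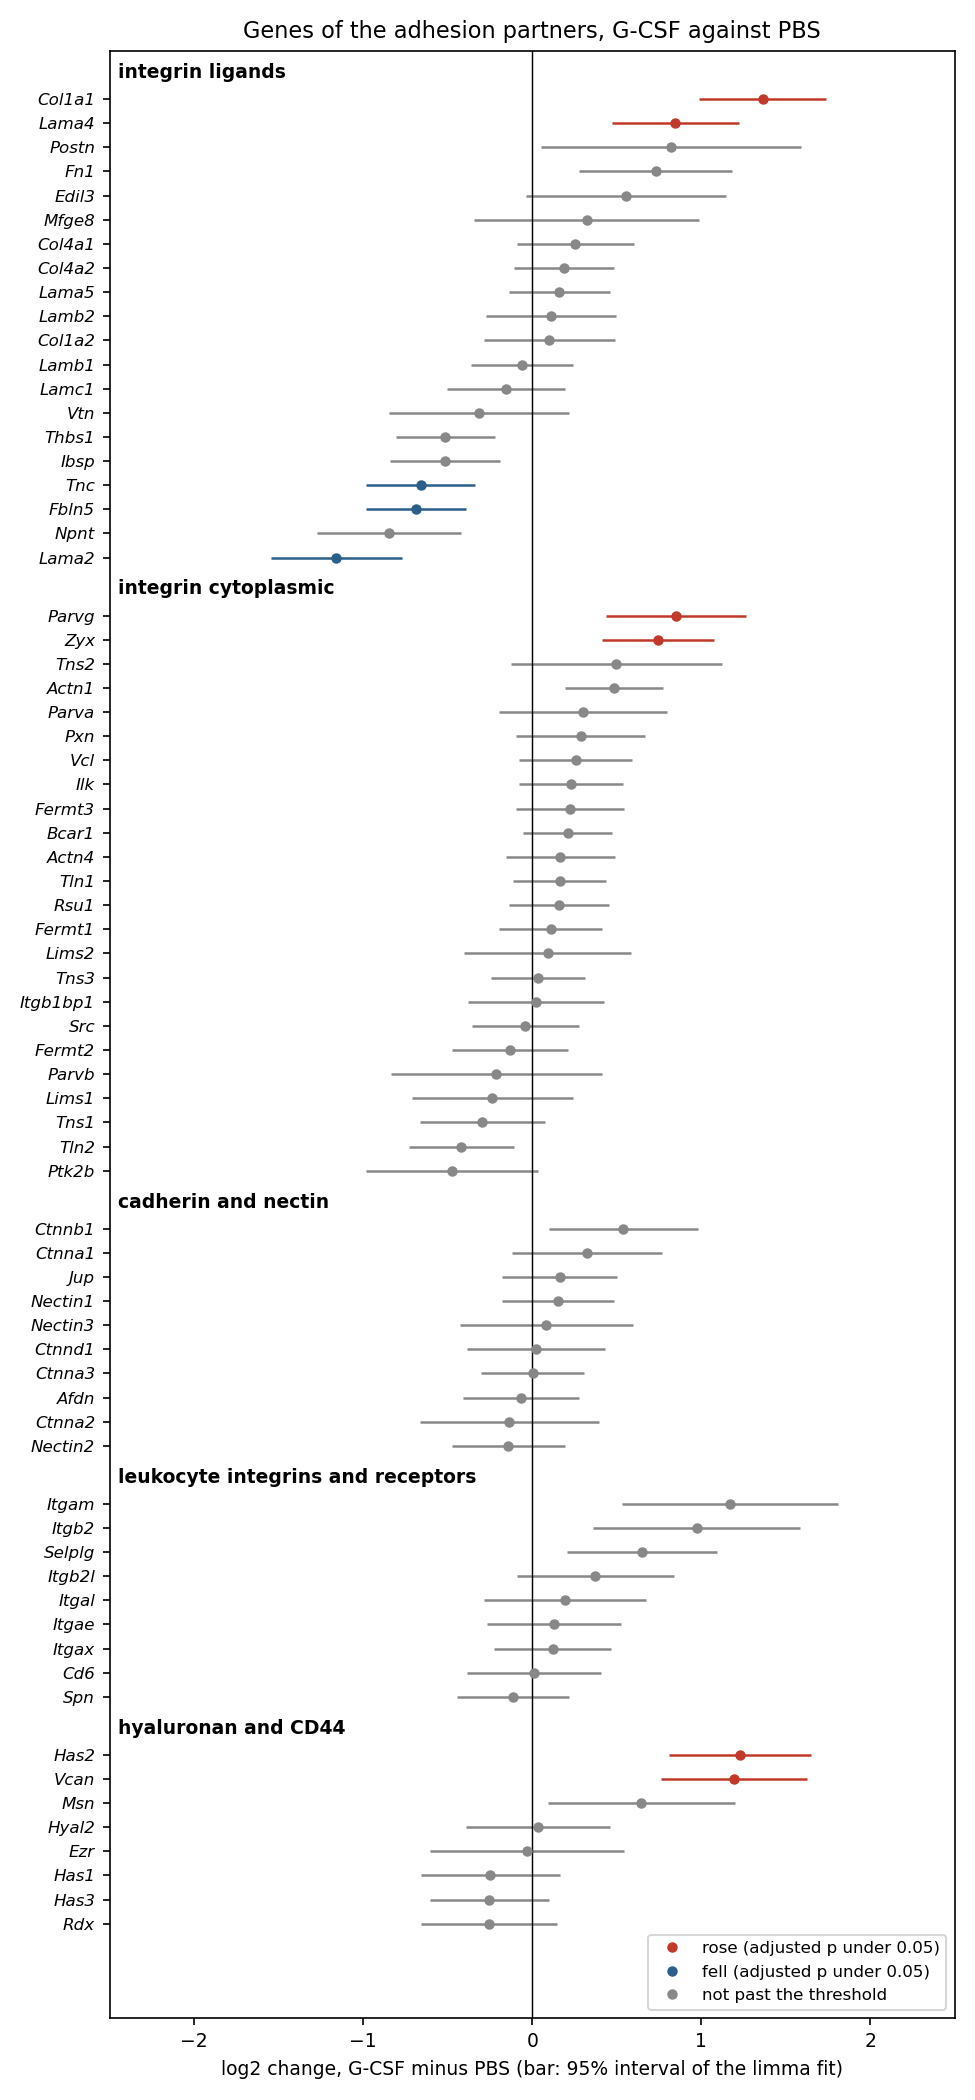
Change of the 71 measured partner genes (G-CSF minus PBS, log2, x axis) with the 95% interval of the limma fit, in 5 lists, from 5 G-CSF and 4 PBS arrays. The genes in red (6) rose and those in blue (3) fell, and the cadherin and leukocyte lists hold none of either.

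Inside the cell, integrin tails are tied to actin by talins, kindlins, vinculin and the complex of Ilk, PINCH and parvins. Of 24 such genes, 2 rose and 0 fell (8.33% called, against 1.62% of all probe sets). Zyx (zyxin), which gathers at adhesions under tension, rose by 0.74 (adjusted p = 0.0308, and up to 0.0997 without PBS replicate 2). Parvg, the parvin of blood cells, rose by 0.85 (adjusted p = 0.0478, and up to 0.143 without PBS replicate 1). With the neutrophil marker mean as a covariate the Parvg change was 0.39 (adjusted p = 1), the smallest relative to its reported value among the 9 called partner genes. The cause of the smaller Parvg change was not tested. Of 10 genes for catenins, afadin and nectins, 0 were called (1 at an unadjusted p under 0.05), with Ctnnb1, beta-catenin, nearest at 0.54 (adjusted p = 0.355).

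Of 9 measured leukocyte integrins and receptors, 0 were called in limma, although 3 had an unadjusted p under 0.05. Itgam, the alpha M chain of neutrophils and macrophages, was nearest, at 7.43 ± 0.28 in G-CSF arrays and 6.26 ± 0.74 in PBS arrays (change 1.17, adjusted p = 0.0825). Of the 9 fits with 1 array left out, it was called in 1, that without PBS replicate 2 (change 1.41, adjusted p = 0.0367). PBS replicate 2 had the highest neutrophil marker mean of the PBS arrays (9.37, against 7.92 to 8.44 in the other 3). With that mean as a covariate the Itgam change was 0.25 (adjusted p = 1). Itgb2, its partner chain, named after its values were seen, was at 0.97 (adjusted p = 0.148), and was likewise called without PBS replicate 2 (adjusted p = 0.0271). With the neutrophil covariate the Itgb2 change was 0.017 (adjusted p = 1). Together Itgam and Itgb2 form a counter-receptor of Icam1 known from blood cells. As Itgam is itself a chain of neutrophils, a smaller change with a neutrophil covariate could be foreseen. The cause of the smaller changes of Itgam and Itgb2 was not tested.

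Of 8 measured genes for hyaluronan and Cd44 partners, 2 rose (25%, against 0.743% risen of all probe sets). Has2, the main hyaluronan synthase of mesenchymal cells, was at 6.25, 5.66, 5.56, 5.50 and 6.18 in G-CSF arrays, against 4.69, 4.78, 4.29 and 4.64 in PBS arrays. The groups did not overlap, and the rise was 2.35-fold (change 1.23, SE 0.19, adjusted p = 0.00649 in limma). Vcan, versican, a proteoglycan that binds hyaluronan, rose 2.29-fold (change 1.19, SE 0.20, adjusted p = 0.00908). Both stayed called with any 1 array left out, at adjusted p of up to 0.0206 and 0.0342. Within sets 1 and 2 Has2 was at 1.09 and 1.38 (adjusted p = 0.0961 and 0.163). Vcan was at 1.33 and 1.14 there (adjusted p = 0.0296 and 0.0906). The Has2 levels of the PBS arrays all lay below 5.15, the median over all 35553 probe sets.

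**Figure D5:**
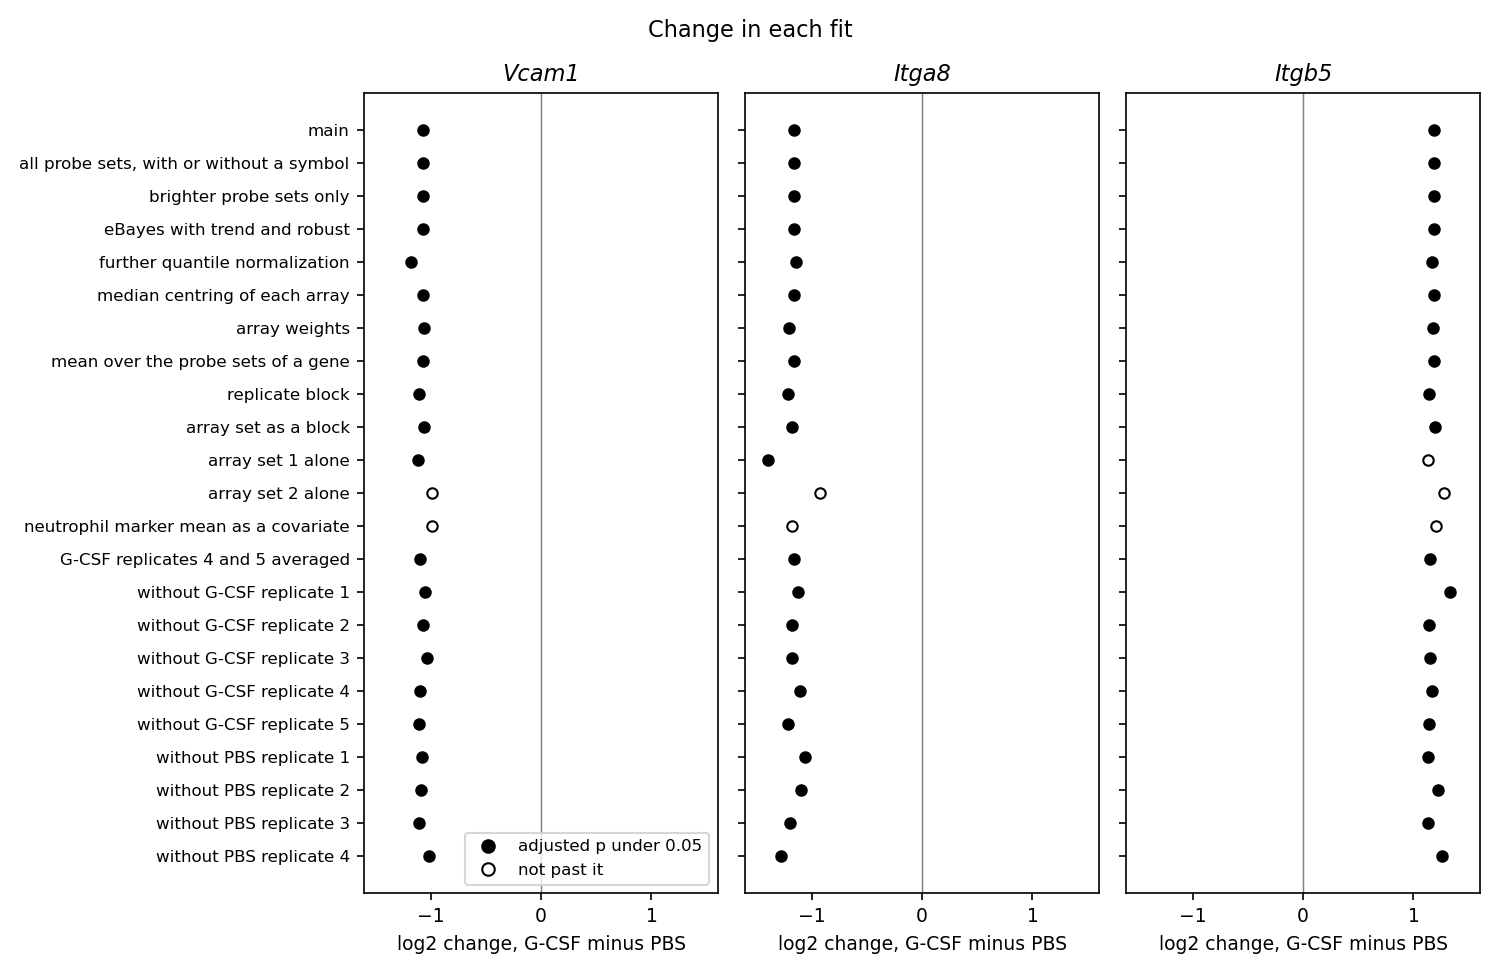
Change of Vcam1, Itga8 and Itgb5 (G-CSF minus PBS, log2, x axis) in the fit reported here (labelled main) and in the alternative fits (rows), filled where the adjusted p was under 0.05. The 3 genes kept their sign throughout, and every open point is a fit within a single array set or with the neutrophil marker mean as a covariate.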

How the data were processed

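RNA of sorted cells was amplified and hybridised to Mouse Gene 1.0 ST arrays, per the labels' protocols. The deposited values are linear intensity values that the authors made with RMA (the submitters' processing notes name Affymetrix Expression Console), which means background correction, quantile normalization and probe summary. Software versions, genome build and detection calls are not given in the sources used here, so no gene coordinates are printed except those of the RefSeq promoter windows.

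The 9 arrays were grouped by their titles. Values were taken as log2 and fitted with limma 3.58.1 (lmFit and eBayes, R 4.3.3), G-CSF against PBS with no covariate, over the 21789 probe sets of 35553 with a single symbol in the platform annotation, with Benjamini-Hochberg adjustment. The script was tested on simulated data. The members and lists were chosen with earlier results of these data known. Every member is named whatever its result. From each partner list every gene that passed is named, or the one with the smallest p. For a gene with several probe sets the brightest was used. The array sets are the sides of 0 on the first principal component and not a label. Alternatives were each array left out, other scalings, weights, filters and thresholds, a block for replicate number or array set, either array set by itself, a mean of G-CSF replicates 4 and 5 (the closest pair, with an SD of log2 differences of 0.279, against 0.372 for the next), and a neutrophil covariate. The precision of all values is limited by the number of arrays.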

Additional observations from a re-analysis of the deposited data

Results flagged for a closer look

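In 5 of the 74 groups of arrays examined (37 genes, G-CSF and PBS), 1 array lay far from the others of its group by Dixon's test, and chance gives about 1 in 20. For Itgb5, G-CSF replicate 1 was lowest at 8.49, with the next G-CSF array at 9.12, and all G-CSF arrays still lay above the PBS arrays. The other 4 arrays were high ones of the PBS group. For Icam1, PBS replicate 4 was at 8.14, with the next at 7.51. For Itgb7, PBS replicate 2 was at 5.48, with the next at 4.55. PBS replicate 3 was highest for Itga2, at 5.14 with the next at 4.63, and for Alcam, at 5.74 with the next at 4.73. None of Icam1, Itgb7, Itga2 and Alcam was called changed.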

How the results depend on the processing

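Vcam1, Itga8 and Itgb5 kept their direction in all alternatives run. They stayed called except within set 2 alone and with the neutrophil covariate (0 risen and 0 fallen members in each), and Itgb5 also within set 1 alone (0 risen). With 1 array left out, risen members numbered 1 to 1 and fallen members 2 to 2. The number of probe sets called, 353, was 181 over all 35553 probe sets, with or without a symbol. It was 598 with the array set as a block, 202 in set 1, 59 in set 2 and 40 with the neutrophil covariate. At an adjusted p under 0.01 it was 149, and with 1 array left out it ran from 210 (without PBS replicate 1) to 318. Leaving out G-CSF replicate 1 gave 222, and leaving out G-CSF replicate 4 gave 224. Sets alone hold fewer arrays, and otherwise the cause was not tested.

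With the replicate number as a block 180 probe sets were called, the partner lists had 3 risen and 1 fallen, and no member's call changed. Same-numbered G-CSF and PBS arrays had deviations that correlated at 0.28, 0.14, -0.28 and 0.35. So few values cannot decide whether the numbers pair the arrays. Against 6 risen and 3 fallen partner genes, there were 3 and 1 over all 35553 probe sets. There were also 3 and 1 with G-CSF replicates 4 and 5 averaged, and 3 and 1 at an adjusted p under 0.01. Set 1 gave 2 and 0, set 2 gave 0 and 0, and the neutrophil covariate gave 0 and 0. With 1 array left out they were 3 to 6 risen and 1 to 3 fallen.

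Changes of opposite sign occurred only in members that were not called. They were -0.035 (Itga1) and -0.028 (Itga11) after quantile normalization. With array weights they were 0.018 (Itga7), 0.11 (Itga2b), -0.14 (Itgb7), 0.014 (Alcam), -0.056 (Jam3) and 0.014 (F11r). With the replicate block they were -0.073 (Itga9), -0.0018 (Itga11), -0.0020 (Itgb4), -0.016 (Jam3) and 0.041 (F11r), and with the set block 0.0095 (Itga2b) and -0.014 (Itgb7). In set 1 they were -0.024 (Itga1), 0.13 (Itga2b), 0.12 (Itgb6), -0.21 (Itgb7), -0.22 (Jam3), 0.067 (Cadm3) and -0.12 (Cdh13). In set 2 they were 0.47 (Itga4), -0.053 (Itga5), -0.031 (Itga11), 0.020 (Jam2) and 0.015 (F11r). With the neutrophil covariate they were 0.12 (Itga2b), -0.032 (Itgb4), -0.52 (Itgb7), -0.063 (Jam3), 0.12 (F11r) and 0.17 (Cadm3), and with G-CSF replicates 4 and 5 averaged -0.028 (Itga9) and -0.011 (Itga11). With 1 array left out, changes ran from -0.039 to 0.12 for Itga1, -0.041 to 0.26 for Itga5, -0.080 to 0.23 for Itga6, -0.28 to 0.0020 for Itga7, -0.079 to 0.11 for Itga9, -0.058 to 0.083 for Itga11 and -0.19 to 0.075 for Itga2b. They ran from -0.074 to 0.15 for Itgb4, -0.17 to 0.064 for Itgb6, -0.088 to 0.26 for Itgb7, -0.30 to 0.058 for Alcam, -0.086 to 0.029 for Jam2, -0.056 to 0.18 for Jam3 and -0.090 to 0.060 for F11r. RMA values give no background level, so what signal over background limits could not be read.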
